A study of Mus musculus and Homo sapiens with 9 samples.

Results

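The genes described here are the CD4 and CD8 coreceptors, 2 transcription factors of CD4 and regulatory T cells, and 5 checkpoint or costimulatory receptors of T cells. They were chosen by symbol, as CD4, CD8A, CD8B, ZBTB7B, FOXP3, CTLA4, PDCD1, TIGIT, LAG3 and ICOS in the human count table and as the same symbols in mouse case in the mouse table, where CD8B is Cd8b1. All 10 had a row in both tables, among 64252 human and 43432 mouse rows. After the filter on low counts, 10 of 10 were tested among 15350 mouse genes and 6 of 10 among 15819 human genes.

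CD4 and CD8 bind MHC molecules beside the T cell receptor and bring the kinase LCK to it, and mature T cells carry one of them. CD8 is a pair of chains, encoded by CD8A and CD8B, while the transcription factor ZBTB7B (ThPOK) directs thymocytes to the CD4 lineage. Regulatory T cells are CD4+ cells that depend on the transcription factor FOXP3 and restrain other T cells. CTLA4, PDCD1 (PD-1), TIGIT and LAG3 are receptors that dampen T cell activation, whereas ICOS, a relative of CD28, costimulates it.

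RNA was sequenced from J.gamma1 cells, a Jurkat-derived line of T cell acute lymphoblastic leukemia (T-ALL), and from splenic CD3+ T cells of mice. The J.gamma1 cells carried a lentiviral control hairpin (sh-NC, 2 libraries) or a hairpin against IRF2BP2 (sh-IRF2BP2, 2 libraries), and both lines had been selected with puromycin. The mouse libraries were 2 Irf2bp2 knockout (Vav-iCre+/-;Irf2bp2fl/fl) and 3 control, labelled wild type and named Vav-iCre-/-;Irf2bp2fl/fl in the study's text. Vav-iCre is active throughout the hematopoietic lineage, so the deletion was not restricted to T cells, and the T cells were sorted magnetically from the spleen. The study gives an age for mice of this cross but does not tie it to the sequenced libraries. Whether a library held 1 animal or several is not given in the sources used here. The p-values below therefore measure the spread between these libraries, which may be technical.

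Total counts lay between 26648204 and 31120236 in the human and between 16668577 and 37177523 in the mouse libraries, with control replicate 3 the shallowest. Levels are given as CPM, which are counts scaled to a common library size after TMM. Irf2bp2 had 4145, 4594 and 1915 counts in the control and 0 and 0 in the knockout libraries, and IRF2BP2 fell from 202 ± 4.04 to 86.4 ± 10.5 CPM (SD, n = 2 each) in J.gamma1 cells, with an adjusted p of 0.0023. A gene is called higher or lower at a Benjamini-Hochberg adjusted p under 0.05 in edgeR's quasi-likelihood test over all genes. In the mouse comparison 2.68% of the tested genes were called higher and 0.15% lower. In bulk RNA, fewer cells of a type and less RNA per cell cannot be told apart. By flow cytometry, the study reported similar CD4+, CD8+ and CD25+Foxp3+ T cell percentages in the spleens of knockout and control mice. It does not tie those percentages to the sequenced libraries.

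The start of transcription of 2 of the genes is shown because Tigit had the largest fold change of the 10 genes in knockout T cells and Cd8a encodes the coreceptor chain shared by CD8 dimers. RefSeq promoter windows of 300 bases, from 250 before to 50 after a start, held 6 of the 10 mouse genes by symbol (GRCm38.p6). The capitals mark literal matches, on either strand, to a RUNX word (TGTGGT, reverse ACCACA), an ETS word (CCGGAA, reverse TTCCGG) and an E-box word (CAGCTG). The Tigit window lies at chr16:43664135-43664434 on the minus strand and the Cd8a window at chr6:71373177-71373476 on the plus strand.
Tigit: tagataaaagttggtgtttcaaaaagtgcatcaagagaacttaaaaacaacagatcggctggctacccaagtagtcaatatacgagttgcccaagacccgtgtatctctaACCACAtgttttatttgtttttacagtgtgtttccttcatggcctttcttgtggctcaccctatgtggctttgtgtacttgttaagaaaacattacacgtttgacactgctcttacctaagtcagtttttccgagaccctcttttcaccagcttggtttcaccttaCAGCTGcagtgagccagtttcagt
Cd8a: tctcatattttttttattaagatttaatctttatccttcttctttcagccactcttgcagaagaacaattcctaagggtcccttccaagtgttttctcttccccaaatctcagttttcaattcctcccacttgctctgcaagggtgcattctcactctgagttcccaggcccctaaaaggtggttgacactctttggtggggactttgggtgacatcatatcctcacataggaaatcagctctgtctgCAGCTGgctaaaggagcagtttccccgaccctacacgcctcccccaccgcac
Positions are counted from 0 at the first transcribed base of the RefSeq start. For Tigit that start lies before the gene bounds given below, and so does its E-box word. The Tigit window held a RUNX word that begins at position -140, on the reverse strand, and an E-box word at position 26. The Cd8a window held an E-box word that begins at position -2. Among 32851 such windows of the mouse genome, 16.8% held the RUNX word, 14.9% the ETS word and 16.3% the E-box word. A match is a description of letters, and no binding was measured here.

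In control T cells the coreceptors were the most abundant of the 10 genes per exonic length, and Tigit, Pdcd1 and Lag3 had the lowest mean levels. Cd8b1 had the highest mean level, at 326 CPM per kb, followed by Cd8a at 169 and Cd4 at 119 CPM per kb, and the ranges of these neighbours did not overlap. Zbtb7b followed at 26.5 CPM per kb. Icos at 19.1 and Ctla4 at 18.7 CPM per kb overlapped, as did Foxp3 at 13.9 with Tigit at 9.54 CPM per kb, and Tigit with Pdcd1 at 6.71 CPM per kb. Lag3 was the lowest, at 3.67 CPM per kb. In the knockout, Tigit stood at 53.7 CPM per kb, above Icos and next to Ctla4 at 56.3 CPM per kb, with which it overlapped. Lag3 again had the lowest mean there, at 13.1 CPM per kb, but overlapped with Pdcd1 at 15.0 CPM per kb.

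**Figure D1:**
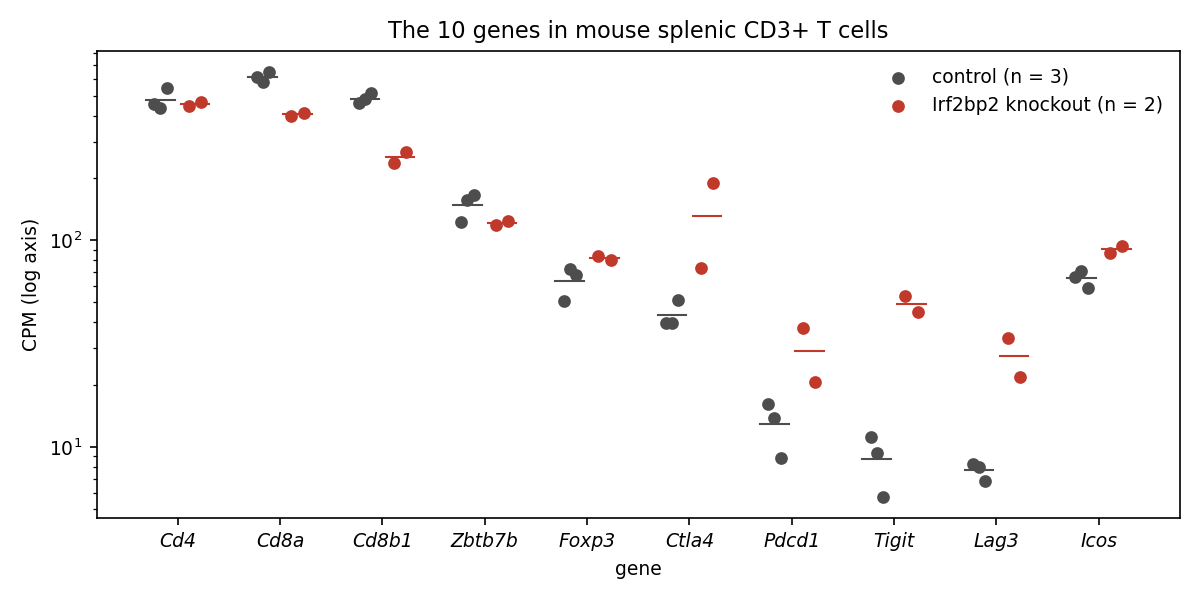
CPM on a log axis for each of the 10 genes in the 3 control (grey) and 2 Irf2bp2 knockout libraries (red) of mouse splenic CD3+ T cells, with a bar at each group's mean. Cd8a and Cd8b1 lie lower in both knockout libraries, Foxp3, Ctla4, Pdcd1, Tigit, Lag3 and Icos lie higher, and Cd4 and Zbtb7b overlap.

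Of the 10 genes, 2 were called higher in knockout T cells (Tigit and Lag3) and 1 was called lower (Cd8b1). DESeq2 called 6.1% of all genes higher and 1.86% lower. Of the 10 genes it called 5 higher (Tigit, Lag3, Ctla4, Pdcd1 and Icos) and 2 lower (Cd8a and Cd8b1). In counts simulated for the mouse design with 200 genes changed 4-fold, DESeq2 recovered 185 with 42 false calls. There edgeR recovered 169 with 7 false calls. The libraries of the groups did not overlap for 6 genes that were higher in the knockout and 2 that were lower, against 18.2% and 17.8% of all genes tested. By edgeR, 5 genes were higher and 2 lower at an unadjusted p under 0.05. The share of all genes at this unadjusted threshold was not counted, here or for the lists and human genes below. No gene was called without control replicate 1 or without knockout replicate 2, and 1 was called higher without knockout replicate 1. The median log2 fold change over the 10 genes was 0.41, beside -0.02 over all genes tested.

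The CD8 chains were lower in the knockout and Cd4 was not separated from its controls. Cd8b1 (ENSMUSG00000053044, chr6:71322788-71337494, GRCm38) encodes the beta chain, which marks conventional CD8 T cells. Its level was 458, 479 and 515 CPM in the controls and 236 and 268 CPM in the knockout libraries. Both knockout libraries lay far under the lowest control. Cd8b1 fell by 0.94 on the log2 scale (SE 0.137), with an adjusted p of 0.021 by edgeR and 3.6e-09 by DESeq2. Without control replicate 1 the adjusted p was 0.089, and it was 0.26 and 0.19 without knockout replicates 1 and 2.

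Cd8a (ENSMUSG00000053977, chr6:71373427-71379173) encodes the alpha chain, which also forms the homodimer of some innate-like T cells. It had 612, 584 and 651 CPM in the controls and 398 and 414 CPM in the knockout. The groups did not overlap. By edgeR the log2 fold change of -0.60 (SE 0.128) did not pass, with an adjusted p of 0.068, while DESeq2 gave 7.1e-05. Without control replicate 2 it passed, at an adjusted p of 0.043. Cd8a and Cd8b1 lie 35.9 kb apart on chromosome 6 with no coding gene between them.

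Cd4 (ENSMUSG00000023274, chr6:124864692-124888221) had 458, 435 and 543 CPM in the controls and 447 and 465 CPM in the knockout. The knockout libraries lay inside the range of the controls. Its log2 fold change was -0.07 (SE 0.146, adjusted p 0.87), and 0.45 (adjusted p 0.19) when libraries were scaled to their CD3D, CD3E and CD3G counts. That scaling raised the median of all mouse genes by 0.53 on the log2 scale, because the CD3 chains themselves were lower in the knockout. Under it Cd8b1 kept a negative log2 fold change of -0.42 but lost its call (adjusted p 0.17), and Cd8a was at -0.08 (adjusted p 0.77).

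All 10 T cell identity markers (Cd3d, Cd3e, Cd3g, Cd247, Cd2, Cd5, Cd6, Lck, Zap70 and Lat) were lower in both knockout libraries than in any control, with a median log2 fold change of -0.43. None was called by edgeR, 6 had an unadjusted p under 0.05, and DESeq2 called 3 lower. Their summed level was 4231 to 5177 CPM in the controls and 3231 to 3507 CPM in the knockout. Over the same libraries the 11 erythroid markers summed to 675 to 2332 CPM in the controls and 4649 to 6503 CPM in the knockout, and 6 of them were called higher. That count was 0 without control replicate 1, 1 without knockout replicate 1 and 0 without knockout replicate 2, and hemoglobin reads may be split between near-identical copies. Tfrc, the transferrin receptor, had 75.6, 72.0 and 83.7 CPM against 277 and 323 CPM. No erythroid marker was at 0 in every library. The part of these erythroid transcripts in the levels of the 10 genes was not tested.

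Ratios of counts within a library need no scaling, and they separated the CD8 chains from Cd4. The ratio of Cd8a to Cd4 counts was 1.34, 1.34 and 1.20 in the controls and 0.890 and 0.890 in the knockout. The ratio of Cd8b1 to Cd4 was 1.00, 1.10 and 0.949 in the controls and 0.527 and 0.576 in the knockout. Within CD8, the ratio of Cd8b1 to Cd8a went from 0.787 ± 0.0362 (SD, n = 3) to 0.619 ± 0.0393 (SD, n = 2), so the beta chain was lower relative to the alpha chain. None of these 3 ratios overlapped between groups. Each had an exact two-sided permutation p of 0.2, the smallest that 3 against 2 libraries allow.

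Relative to the 3 CD3 chains, Cd4 was higher and Cd8b1 lower in the knockout, and Cd8a overlapped. The ratio of Cd4 to the sum of the CD3 chains was 0.388 ± 0.0938 in the controls and 0.529 ± 0.00894 in the knockout (SD, n = 3 and 2), with the exact permutation p at 0.2. For Cd8b1 the ratio was 0.390 ± 0.0665 and 0.292 ± 0.0234, also with an exact permutation p of 0.2. For Cd8a it was 0.497 ± 0.0903 and 0.471 ± 0.00784, with an exact permutation p of 0.8. The 3 CD3 chains were 3 of the identity markers that lay lower in the knockout.

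**Figure D2:**
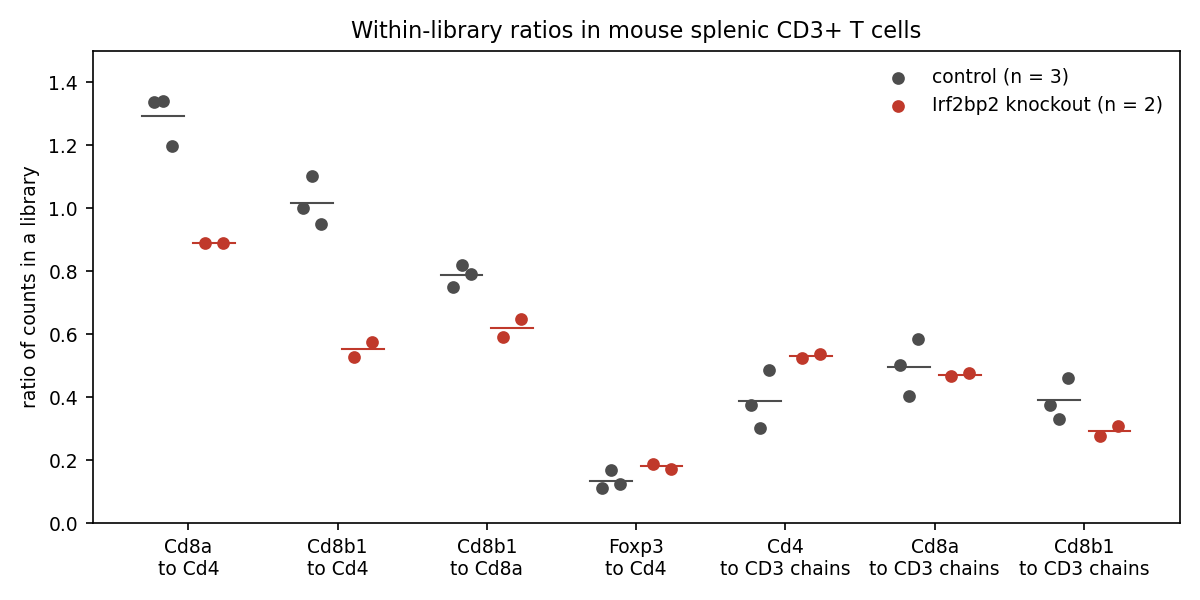
Ratio of the counts of 2 genes, or of a gene to the sum of Cd3d, Cd3e and Cd3g, in each control (grey) and Irf2bp2 knockout (red) library, with a bar at each group's mean. Cd8a to Cd4 lies at 0.890 in both knockout libraries and between 1.20 and 1.34 in the controls, and only Cd8a to the CD3 chains overlaps among the 7 ratios drawn.

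Zbtb7b (ENSMUSG00000028042, chr3:89377644-89394776), which directs cells to the CD4 lineage, had 123, 157 and 165 CPM in the controls and 118 and 124 CPM in the knockout. The groups overlapped by a narrow margin. Zbtb7b had a log2 fold change of -0.29 (SE 0.160, adjusted p 0.45), or of 0.24 under scaling to the CD3 chains (adjusted p 0.40). An antisense gene, Gm15417, overlaps it with 149 counts over all libraries against 21814 for Zbtb7b, and whether counting used strand is not given in the sources used here. Of 16 other regulators of the CD4 and CD8 lineages, none was called by edgeR, 1 was higher and 2 were lower at an unadjusted p under 0.05, and DESeq2 called 2 lower. Their median log2 fold change was -0.0048, beside -0.02 over all genes.

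Foxp3 (ENSMUSG00000039521, chrX:7573644-7595245) had 50.9, 72.9 and 67.6 CPM in the controls and 83.5 and 80.6 CPM in the knockout. Both knockout libraries lay above the highest control, but the log2 fold change of 0.36 (SE 0.172) did not pass the test (adjusted p 0.37, and 0.39 by DESeq2). Under scaling to the CD3 chains its adjusted p by edgeR was 0.038. That scaling raised the median log2 fold change of all mouse genes by 0.53, and 1450 genes were called higher and 8 lower. Relative to Cd4 counts, Foxp3 was 0.111, 0.168 and 0.125 in the controls and 0.187 and 0.173 in the knockout, with an exact permutation p of 0.2. The neighbours Ccdc22, Ppp1r3f, Flicr and Gm36995 overlap Foxp3, with between 399 and 3217 counts each over all libraries against 11662 for Foxp3.

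Of 16 other genes of regulatory T cells, 2 were called higher in the knockout and none lower, and DESeq2 called 4 higher. Ikzf2 (Helios), a transcription factor of regulatory T cells, had 63.9, 49.5 and 81.0 CPM in the controls and 138 and 135 CPM in the knockout, with a log2 fold change of 1.08 (SE 0.204, adjusted p 0.048). Nrp1 (neuropilin-1), a surface marker of thymus-derived regulatory T cells, had 36.2, 24.7 and 30.7 CPM and 59.0 and 58.9 CPM, with a log2 fold change of 0.95 (SE 0.179, adjusted p 0.047). Neither was called without control replicate 1, without knockout replicate 1 or without knockout replicate 2. Over the list, 11 genes had a log2 fold change above 0 and 5 under 0, with a median of 0.19. At an unadjusted p under 0.05 by edgeR, 5 were higher and 1 lower.

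Tigit and Lag3 rose the most of the 10 genes. TIGIT binds the poliovirus receptor family and competes with the activating receptor CD226. Tigit (ENSMUSG00000071552, chr16:43648867-43664146), whose promoter window is printed above, had 11.1, 9.40 and 5.76 CPM in the controls and 53.7 and 45.1 CPM in the knockout, from 413, 340 and 92 against 2055 and 1601 counts. Every knockout library was several times above every control. Its log2 fold change was 2.48 (SE 0.275, 5.58-fold), with an adjusted p of 0.010 by edgeR and 6.9e-14 by DESeq2. The edgeR call was lost without control replicate 1 (adjusted p 0.056) and without knockout replicates 1 and 2 (adjusted p 0.072 and 0.094).

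LAG3 is related to CD4 and binds MHC class II, and the gene lies beside Cd4, 16.1 kb away on chromosome 6 with no coding gene between them. Lag3 (ENSMUSG00000030124, chr6:124904361-124911705) had 8.29, 8.02 and 6.88 CPM in the controls and 33.5 and 21.8 CPM in the knockout. The groups were well separated, with a wider spread in the knockout than in the controls. Lag3 rose by 1.83 on the log2 scale (SE 0.235, 3.57-fold, adjusted p 0.015, and 2.4e-09 by DESeq2), while its neighbour Cd4 was at -0.07. The edgeR call was lost without control replicate 1 (adjusted p 0.083) and without knockout replicates 1 and 2 (adjusted p 0.14 and 0.089).

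CTLA4 competes with CD28 for CD80 and CD86 and is abundant in regulatory T cells. Ctla4 (ENSMUSG00000026011, chr1:60887000-60915832) had 39.9, 39.8 and 51.2 CPM in the controls and 73.3 and 189 CPM in the knockout. Both knockout libraries lay above the controls, but they differed widely from each other, with an SD of 81.8 CPM around a mean of 131 CPM. A log2 fold change of 1.59 (SE 0.365) did not pass edgeR's test (adjusted p 0.083) but passed DESeq2's (6.3e-04). Without knockout replicate 2 the log2 fold change was 0.73 (adjusted p 0.40), and without knockout replicate 1 the gene passed (adjusted p 0.039). A pseudogene, Rpl18-ps1, overlaps Ctla4 with 150 counts in all against 13255.

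ICOS lies 62.1 kb from Ctla4 on chromosome 1. Icos (ENSMUSG00000026009, chr1:60977927-61000320) had 66.5, 71.1 and 58.7 CPM in the controls and 86.6 and 94.2 CPM in the knockout. The groups did not overlap. Icos had a log2 fold change of 0.47 (SE 0.132) and an adjusted p of 0.14 by edgeR and 0.047 by DESeq2. Its neighbour Ctla4 had a larger log2 fold change with a larger error.

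Pdcd1 (ENSMUSG00000026285, chr1:94038305-94052553) encodes PD-1, the receptor of PD-L1 and PD-L2. Its level was 16.1, 13.9 and 8.88 CPM in the controls and 37.4 and 20.7 CPM in the knockout, so the lower knockout library stood just above the highest control. Its log2 fold change of 1.16 (SE 0.332) had an adjusted p of 0.15 by edgeR and 0.021 by DESeq2. Under scaling to the CD3 chains, Ctla4, Icos and Pdcd1 passed edgeR's test, at adjusted p values of 0.031, 0.011 and 0.029. Over all mouse genes, that scaling gave 1450 called higher and 8 lower, in place of 412 and 23.

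Of 18 other costimulatory and inhibitory receptors, 1 was called higher in the knockout and none lower. At an unadjusted p under 0.05 by edgeR, 4 were higher and 2 lower. Over the list, 11 had a log2 fold change above 0 and 7 under 0, with a median of 0.09. Klrg1, an inhibitory receptor of effector T and NK cells, had 4.56, 3.73 and 1.81 CPM in the controls and 12.1 and 19.1 CPM in the knockout (log2 fold change 2.19, SE 0.411, adjusted p 0.046). It was not called with upper-quartile scaling, nor without control replicate 1 or either knockout replicate. DESeq2 called 3 of the list higher and 1 lower. None of the 15 tested ligands of the 10 genes was called, with 2 higher and 1 lower at an unadjusted p under 0.05 and none called by DESeq2. None of 18 signalling partners was called by edgeR, with 4 lower at an unadjusted p under 0.05, and DESeq2 called 1 lower.

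Of 15 cytotoxic and effector genes, 3 were called higher and 1 lower. At an unadjusted p under 0.05 by edgeR, 6 were higher and 3 lower, and DESeq2 called 4 higher and 2 lower. Over the list, 8 genes had a log2 fold change above 0 and 7 under 0, with a median of 0.25. Gzmk and Gzmb, granzymes that T cells release on killing, rose from 5.36 to 56.9 CPM (log2 fold change 3.39, SE 0.351, adjusted p 0.010) and from 8.61 to 48.2 CPM (log2 fold change 2.47, SE 0.346, adjusted p 0.020). Ccl5, a chemokine of memory and effector T cells, rose from 85.9 to 222 CPM (log2 fold change 1.37, SE 0.201, adjusted p 0.022). Ctsw, a cathepsin of CD8 T and NK cells, fell from 123 to 64.2 CPM (log2 fold change -0.93, SE 0.176, adjusted p 0.048). The higher granzymes stood beside lower Cd8a and Cd8b1 in the same 2 libraries. All 4 calls were lost without knockout replicate 2, and 1 gene was called higher and none lower without knockout replicate 1 or without control replicate 1.

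Other cell types left transcripts in all mouse libraries. The 12 B cell and plasma cell markers summed to 500 to 1199 CPM in the controls and 1048 to 1459 CPM in the knockout, mostly from Jchain, but 7 of the 12 had a log2 fold change under 0 and the list's median was -1.06. The 12 myeloid and dendritic cell markers summed to 41.7 to 414 CPM and 113 to 179 CPM, with 7 of 12 under 0 and a median log2 fold change of -0.56, and the 7 NK cell markers to 79.8 to 118 CPM and 81.2 to 116 CPM, with 6 of 7 under 0 and a median of -0.64. None of these 3 lists had a called gene by edgeR, with 1, 3 and 0 higher and 0, 0 and 2 lower at an unadjusted p under 0.05, and DESeq2 called 1 NK cell marker lower. No marker of these lists was at 0 in every library. Their part in the levels of the 10 genes was not tested.

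In J.gamma1 cells the 10 genes were low or absent, and none of the 6 that were tested passed the test. Here 5.83% of all tested genes were called higher and 5.32% lower, and the libraries of the groups did not overlap for 29.6% of genes that were higher and 28.7% that were lower. Of the 6 tested genes, 1 (ZBTB7B) did not overlap and was higher and 1 (ICOS) did not overlap and was lower. By edgeR 1 gene was higher and none lower at an unadjusted p under 0.05, and DESeq2 called none.

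**Figure D3:**
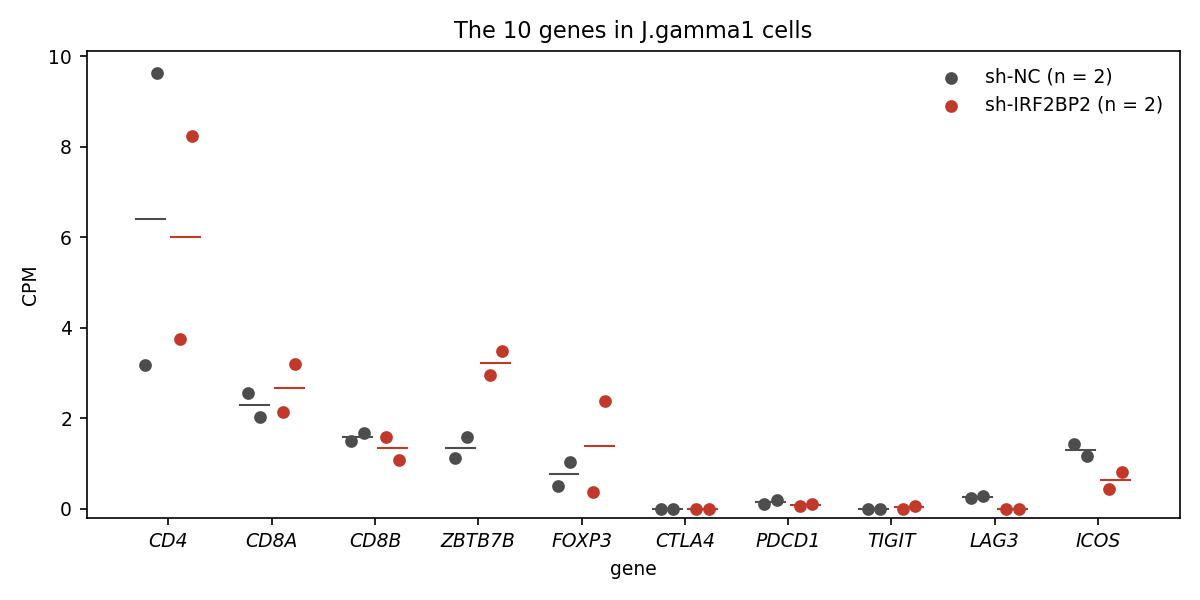
CPM of each of the 10 genes in the 2 sh-NC (grey) and 2 sh-IRF2BP2 (red) libraries of J.gamma1 cells, on a linear axis, with a bar at each group's mean. CD4 reaches 9.64 CPM and separates by replicate rather than by hairpin, while CTLA4 has no counts.

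ZBTB7B (ENSG00000160685, chr1:155002630-155018523, hg38) had 29 and 49 counts with sh-NC and 86 and 103 counts with sh-IRF2BP2, or 1.12 and 1.58 against 2.95 and 3.49 CPM. The groups were separate. ZBTB7B had a log2 fold change of 1.25 (SE 0.353, 2.38-fold) and an adjusted p of 0.061 by edgeR and 0.051 by DESeq2. Scaling to the CD3 chains, of which CD3D was called lower, raised the median log2 fold change of all human genes by 0.22. ZBTB7B passed edgeR's test under that scaling (adjusted p 0.024). It did so too with 10 counts required in every library (adjusted p 0.040) and with counts divided by 2 (adjusted p 0.045). It also passed without sh-NC replicate 2 (adjusted p 0.049), but not without any of the other 3 libraries (adjusted p 0.13 to 0.22).

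The coreceptors did not separate by hairpin. CD4 (ENSG00000010610, chr12:6786858-6820799) had 82 and 299 counts with sh-NC and 109 and 243 counts with sh-IRF2BP2, so that both replicates numbered 2 were higher than both numbered 1. Its log2 fold change was -0.10 (SE 0.529, adjusted p 0.92), and 0.13 when scaled to the CD3 chains. CD8A (ENSG00000153563, chr2:86784610-86808396) had 66 and 63 counts against 62 and 94 counts, and CD8B (ENSG00000172116, chr2:86815339-86861924) had 39 and 52 counts against 46 and 32 counts. Their log2 fold changes were 0.22 (SE 0.353, adjusted p 0.74) and -0.26 (SE 0.401, adjusted p 0.72). CD8B2, a near-identical copy of CD8B, had 0 counts in each library, so how reads were divided between the copies is uncertain. All 7 within-library ratios overlapped between the groups, with exact permutation p values from 0.667 to 1, where 2 against 2 libraries cannot go under 0.333.

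FOXP3 (ENSG00000049768, chrX:49250438-49264800) had 13 and 32 counts with sh-NC and 11 and 70 counts with sh-IRF2BP2. One knockdown library was the lowest and the other the highest of the 4. FOXP3 had a log2 fold change of 0.83 (SE 0.794, adjusted p 0.54), which was -1.03 without sh-IRF2BP2 replicate 2. CCDC22 overlaps FOXP3 on the opposite strand with 2409 counts in all, against 126 for FOXP3, and the sources used here do not state whether counting used strand.

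ICOS (ENSG00000163600, chr2:203936763-203961577) had 37 and 36 counts with sh-NC and 13 and 24 counts with sh-IRF2BP2. Both knockdown libraries were under both controls. The log2 fold change of -1.03 (SE 0.499) did not pass the test (adjusted p 0.23, and 0.36 by DESeq2). LAG3 (ENSG00000089692, chr12:6772512-6778455), which lies 8.40 kb from CD4, had 6 and 9 counts with sh-NC and 0 and 0 with sh-IRF2BP2. A count of 0 allows up to 3 counts in each library. With the mean sh-NC level taken as exact, that limit put the sh-IRF2BP2 level at least 2.55-fold lower. LAG3 was under the filter, and with all genes of at least 1 count kept its adjusted p was 0.15 (unadjusted 0.014). That limit covers counting error in the sh-IRF2BP2 libraries only, and leaves out that of the few sh-NC counts.

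The remaining checkpoint genes were at or near the limit of detection in J.gamma1 cells. CTLA4 had 0 counts in all 4 libraries, which allows up to 0.116 CPM in the shallowest of them. TIGIT had 0, 0, 0 and 2 counts, the latter in sh-IRF2BP2 replicate 2. PDCD1 had 3 and 6 counts with sh-NC and 2 and 3 counts with sh-IRF2BP2. A difference in these 3 genes was not detectable at this depth.

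Genes that act with the 10 genes were called in both directions in J.gamma1 cells. Of 16 lineage regulators, 4 were called higher and 2 lower. CBFB, the partner of RUNX proteins, fell from 233 to 115 CPM (log2 fold change -1.02, SE 0.120, adjusted p 0.0030), while ZBTB7A, a relative of ZBTB7B, rose from 37.4 to 64.9 CPM (log2 fold change 0.80, SE 0.121, adjusted p 0.0072). SATB1, a chromatin organizer of T cells, rose from 511 to 863 CPM (log2 fold change 0.76, SE 0.160, adjusted p 0.024). RUNX1, a transcription factor of the T lineage, rose from 571 to 901 CPM (log2 fold change 0.66, SE 0.151, adjusted p 0.032). With all genes of at least 1 count kept, 1 regulator was called higher and 1 lower. The number called higher was 7 without sh-NC replicate 2, 1 without sh-IRF2BP2 replicate 1 and 2 without sh-IRF2BP2 replicate 2, and 1 was called lower without either sh-IRF2BP2 replicate.

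Of 11 tested genes of regulatory T cells, 4 were called higher and 3 lower. IL2RA (CD25), the alpha chain of the IL-2 receptor, had 2 and 2 counts with sh-NC and 57 and 94 counts with sh-IRF2BP2 (adjusted p 0.0030). IL2RB, the beta chain, rose from 1.73 to 5.39 CPM (log2 fold change 1.64, SE 0.287, adjusted p 0.012). CCR8, a chemokine receptor of regulatory T cells in tissues, fell from 2.30 to 0.222 CPM (log2 fold change -3.35, SE 0.488, adjusted p 0.0063). NRP1 fell from 4.83 to 1.91 CPM (log2 fold change -1.33, SE 0.290, adjusted p 0.027), while Nrp1 rose in the knockout mice. IKZF2 rose from 293 to 542 CPM (log2 fold change 0.89, SE 0.199, adjusted p 0.030), and Ikzf2 was called higher in the knockout mice as well. Without sh-IRF2BP2 replicate 2, 1 gene was called lower. The list's median was -0.22, beside 0.01 over all genes.

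Of 14 tested costimulatory and inhibitory receptors, 3 were called higher and 1 lower. CD40LG, the ligand by which CD4 cells help B cells, rose from 18.3 to 54.9 CPM (log2 fold change 1.58, SE 0.130, adjusted p 0.0011). CD28, the costimulatory receptor to which CTLA4 and ICOS are related, rose from 25.8 to 45.3 CPM (log2 fold change 0.81, SE 0.135, adjusted p 0.010). CD96 rose from 70.8 to 105 CPM (log2 fold change 0.57, SE 0.143, adjusted p 0.043), and SLAMF6 fell from 29.6 to 14.6 CPM (log2 fold change -1.02, SE 0.145, adjusted p 0.0056). Without sh-NC replicate 2, 3 of these receptors were called lower, and without sh-IRF2BP2 replicate 1, 2 were. None of the 11 tested ligands was called by edgeR or DESeq2, with 2 higher at an unadjusted p under 0.05, and 2 were called higher without sh-NC replicate 2.

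Of 18 signalling partners, 4 were called higher (PTPN22, PIK3R1, TRAT1 and PTPN6) and none lower. PTPN6 (SHP-1), a phosphatase that inhibitory receptors recruit, rose from 61.8 to 93.0 CPM (log2 fold change 0.59, SE 0.121, adjusted p 0.022). With all genes of at least 1 count kept, none of the 18 was called, and the number called higher was 7 without sh-NC replicate 1, 1 without sh-IRF2BP2 replicate 1 and 2 without sh-IRF2BP2 replicate 2. Of 12 cytotoxic and effector genes, 6 were called higher and 1 lower, which became 3 and 0 without sh-IRF2BP2 replicate 1 and 2 and 0 without sh-IRF2BP2 replicate 2. EOMES, a transcription factor of effector and memory CD8 and NK cells, rose from 11.5 to 115 CPM (log2 fold change 3.32, SE 0.128, adjusted p 1.0e-04) and is also on the list of 7 NK cell markers, where it was the sole gene tested.

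J.gamma1 cells expressed all 10 T cell identity markers, with summed levels of 1719 to 1924 CPM with sh-NC and 1658 to 1772 CPM with sh-IRF2BP2. CD3D fell from 225 to 130 CPM (log2 fold change -0.79, SE 0.125, adjusted p 0.0086), and CD6 and LAT were called higher. Of the markers of other cell types, CD79A fell from 53.1 to 12.6 CPM (log2 fold change -2.07, SE 0.189, adjusted p 0.0015) and MZB1 fell from 83.2 to 36.6 CPM (log2 fold change -1.18, SE 0.155, adjusted p 0.0042) among 5 tested B cell and plasma cell markers. Of 4 tested erythroid markers 1 was called higher, and the 1 tested myeloid marker was not called, with an unadjusted p under 0.05 in the lower direction and no call by DESeq2.

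**Figure D4:**
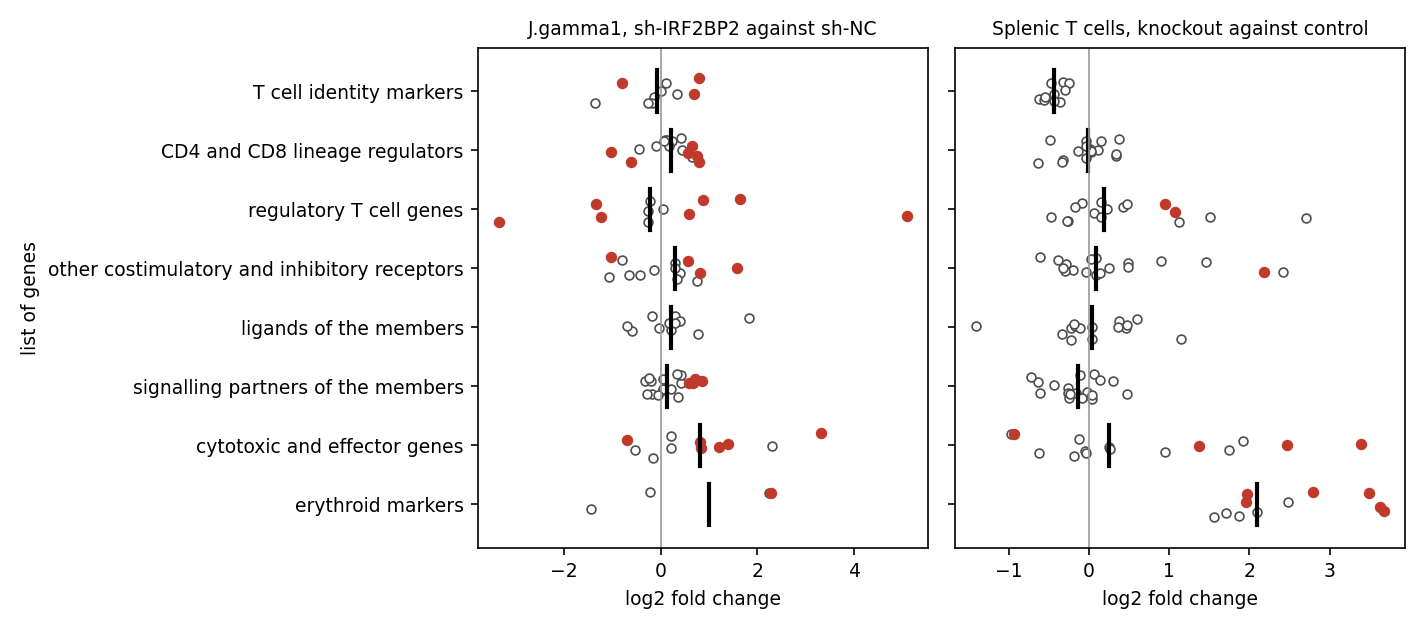
Log2 fold change (x axis) of each tested gene of 8 lists, for J.gamma1 cells (left) and mouse splenic T cells (right), filled red where the adjusted p is under 0.05, with a black bar at the list's median. Genes at 0 in all libraries of a group are not drawn, the 10 mouse T cell identity markers all lie under 0, and the 11 erythroid markers all lie above 0.

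The 2 systems differ in species, in cell type and in how IRF2BP2 was lost, so no gene was compared between them by a test. Of the genes called in mouse T cells, Cd8b1 had a human log2 fold change of -0.26 with an adjusted p of 0.72, and TIGIT and LAG3 were too low in J.gamma1 cells to test. ZBTB7B had the largest log2 fold change of the 6 tested in J.gamma1 cells, at 1.25, and Zbtb7b had -0.29 in mouse T cells. ICOS had -1.03 in J.gamma1 cells and Icos 0.47 in mouse T cells, and neither passed edgeR's test.

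**Figure D5:**
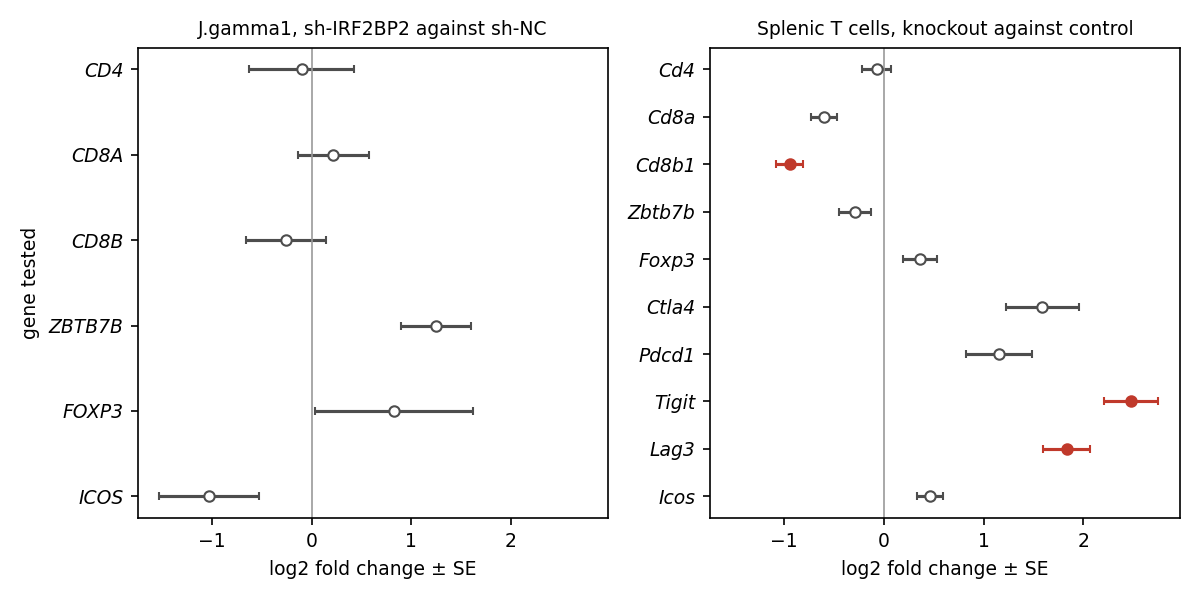
Log2 fold change with its SE (x axis) for each gene tested in J.gamma1 cells (left, 6 genes) and mouse splenic T cells (right, 10 genes), filled red where the adjusted p by edgeR is under 0.05. Cd8b1 at -0.94, Tigit at 2.48 and Lag3 at 1.83 are filled, and no human gene is.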

How the data were processed

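RNA-seq counts of 4 J.gamma1 and 5 mouse splenic T cell libraries were analysed. The authors aligned paired-end reads with HISAT2 2.2.0 (hg38 and mm10, per the submitters' processing notes) and estimated abundance with StringTie. The deposited values are unnormalized whole-number counts, 1 column a library. How StringTie coverage became counts, and whether strand was used, are not given in the sources used here, so 1 common factor in the counts cannot be seen.

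Rows with a GENCODE identifier (v44 or M21) were kept. edgeR 4.0.16 in R 4.3.3 served for the low-count filter (filterByExpr), TMM and the tests (glmQLFit, glmQLFTest, condition only, per species, Benjamini-Hochberg). The SE is the log2 fold change over the square root of F. The biological coefficient of variation was 0.165 (human) and 0.271 (mouse), with 2 and 3 residual degrees of freedom. Replicate pairs were unlike beyond counting noise (chi-square 20.0 to 97.1 a gene). Ratios were compared by exact two-sided permutation tests (SciPy 1.17.1). Counts were simulated with 200 genes changed 4-fold. These were drawn only from genes above a set mean count, so recovery of low-count genes was not measured. edgeR recovered 194 of 200 with 18 false calls in the human design (15819 genes). In the mouse design (15350 genes) it recovered 169 of 200 with 7 false calls. DESeq2 1.42.0 recovered 196 and 185 with 20 and 42 false calls. Named beside the 10 genes are called genes of written lists, at most 4 per list with at least 1 CPM. IKZF2 is named besides, because Ikzf2 was called in the mouse. Leading markers of other cell types and overlapping or adjacent genes are also named. The genes and lists were chosen with earlier results of these data known. Sequences are from RefSeq.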

Additional observations from a re-analysis of the deposited data

Results flagged for a closer look

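In CPM, PDCD1, LAG3 and ICOS lay lower in both sh-IRF2BP2 than in both sh-NC libraries. In mouse T cells they lay higher in both knockout than in all control libraries. Over all tested genes, 28.7% lay lower in this way in J.gamma1 cells and 18.2% higher in mouse T cells. PDCD1 and LAG3 were under the human filter, so the 28.7% does not cover them. The difference between the systems was not tested. PDCD1 averaged 0.155 CPM with sh-NC and 0.0852 CPM with sh-IRF2BP2, but sh-NC replicate 1 and sh-IRF2BP2 replicate 2 each had 3 counts, so a difference was not detectable at this depth. Pdcd1 averaged 12.9 CPM in control and 29.0 CPM in knockout mouse T cells. LAG3 averaged 0.261 CPM with sh-NC and 0 CPM with sh-IRF2BP2, and Lag3 averaged 7.73 CPM in control and 27.6 CPM in knockout mouse T cells. ICOS averaged 1.29 CPM with sh-NC and 0.630 CPM with sh-IRF2BP2, and Icos averaged 65.4 CPM in control and 90.4 CPM in knockout mouse T cells. Of these 6 differences, only that of Lag3 in mouse T cells passed edgeR's test with Benjamini-Hochberg adjustment.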

How the results depend on the processing

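The 2 knockout and 2 knockdown libraries limit every call, and control replicate 3 had the lowest mouse depth. With RLE or upper-quartile scaling, all rows, rows summed by symbol or a threshold of 0.5 on the log2 fold change, the number of the 10 genes called was the same in both systems. In mouse T cells (2 higher, 1 lower), DESeq2 gave 5 and 2, scaling to the CD3 chains 6 and 0, and a threshold of 1 on the log2 fold change left 0 lower. In J.gamma1 cells (0 higher, 0 lower), 1 (ZBTB7B) was higher with scaling to the CD3 chains, 10 counts required in every library, counts divided by 2, or the replicate block (adjusted p 0.019).

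Over all mouse genes (412 higher, 23 lower), DESeq2 called 936 and 285, scaling to the CD3 chains 1450 and 8, counts divided by 2 called 37 lower and the replicate block 53 lower. Over all human genes (923 higher, 841 lower), scaling to the CD3 chains, which raised the median log2 fold change by 0.22, called 1869 and 414, so that 81.9% of calls were higher in place of 52.3%. Keeping genes of at least 1 count called 319 and 396, the replicate block 1884 and 1663, and a threshold of 1 on the log2 fold change left 262 and 318. The cause of these moves was not tested.

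Log2 fold changes that turned in sign were not called in either setting. With scaling to the CD3 chains they were 0.13 for CD4, 0.45 for Cd4 and 0.24 for Zbtb7b. Replicate numbers were not shown to pair the samples, with correlations of deviations of 0.287 for both human pairs and of 0.210 and -0.109 for the mouse pairs. With the replicate block, Cd4 was at 0.0304.

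Leaving out 1 library at a time, in fits that pool the spread where 1 sample remained in a group, gave 0 to 2 higher and 0 to 2 lower of the 10 genes in mouse T cells, and 0 to 1 higher and 0 lower in J.gamma1 cells. Over all genes it gave 6 to 594 higher and 1 to 65 lower in mouse T cells, and 418 to 1863 higher and 419 to 1384 lower in J.gamma1 cells. Log2 fold changes ranged from -0.78 to 0.92 for CD4, from -0.10 to 0.45 for CD8A, from -1.03 to 1.59 for FOXP3 and from -0.12 to 0.0247 for Cd4. Log2 ratios between the groups in J.gamma1 cells ranged from -0.78 to 1.15 for CD8A to CD4, from -1.13 to 0.55 for CD8B to CD4, from -1.04 to 0.0873 for CD8B to CD8A, from -0.37 to 1.15 for FOXP3 to CD4, from -0.62 to 0.85 for CD4 to the CD3 chains and from -0.50 to 0.15 for CD8B to the CD3 chains. In mouse T cells the log2 ratio of Cd8a to the CD3 chains ranged from -0.20 to 0.0657, and the other 6 ratios kept their direction. Counts per kilobase left every log2 ratio as it was.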
